A study of Mus musculus with 9 samples.

Results

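The nuclear genes of respiratory complexes II to V were examined in mouse gastrocnemius, the large calf muscle, by RNA sequencing. They are the protein-coding genes with the symbols Sdha to Sdhd (complex II), Cyc1 and Uqcr (complex III), Cycs (cytochrome c), Cox4 to Cox8 (complex IV) and Atp5 (complex V). The rule took 50 of the 55416 genes of the table. Of these, 46 passed the filter on low counts, among 13944 genes tested in all: all 4 of complex II, all 9 of complex III, Cycs, 15 of 18 of complex IV and 17 of 18 of complex V. Tested members had 13 to 41086 expected counts in a library. Several members have processed pseudogenes or close relatives, so counts of these genes depend on how shared reads were split.

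The 9 libraries formed 3 groups of 3, named as in the labels. SED mice were sedentary. AET mice were trained on a motorized treadmill for 60 minutes a day on 5 days a week over 8 weeks. AET_MET mice had the same training and received metformin, an oral glucose-lowering drug, at 2 mg/mL in the drinking water. No group with metformin and no training was analysed here, so an effect of the drug on training and an effect of the drug alone cannot be told apart. Strain, age, sex, genotype, feeding state and the time between the last run and collection are not stated in the labels. These number the samples and do not say that each is a separate mouse, so p-values measure only how far the samples spread, part or all of which may be technical. The names of the libraries share a stem within each group, so anything done to a group's tissue together cannot be told apart from its treatment.

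Complexes II, III and IV pass electrons from succinate and reduced coenzyme Q to oxygen, with cytochrome c as the soluble carrier between complexes III and IV. Complexes III and IV pump protons, and complex V, the ATP synthase, makes ATP as protons flow back. Complex II is encoded wholly in the nucleus, whereas complexes III, IV and V also hold subunits encoded by mitochondrial DNA, so their assembly draws on both genomes. Endurance training is known for raising the mitochondrial content of muscle, and several complex IV subunits exist as a muscle and a ubiquitous isoform. Metformin is known to inhibit complex I, whose subunits are not among the members.

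Of the promoters of these genes, 3 are shown: that of Cycs, the member with a call in both comparisons with metformin, and those of Cox8a and Cox8b, the ubiquitous and muscle isoforms of a complex IV subunit. Each is the 250 bases before the start in the RefSeq promoter table (GRCm38.p6), 5′ to 3′ on the strand of the gene, with capitals marking the NRF1 core (GCATGCGC) and the cyclic AMP response element (CRE, TGACGTCA), each searched on both strands.
Cycs, chr6:50566570-50566819, minus strand: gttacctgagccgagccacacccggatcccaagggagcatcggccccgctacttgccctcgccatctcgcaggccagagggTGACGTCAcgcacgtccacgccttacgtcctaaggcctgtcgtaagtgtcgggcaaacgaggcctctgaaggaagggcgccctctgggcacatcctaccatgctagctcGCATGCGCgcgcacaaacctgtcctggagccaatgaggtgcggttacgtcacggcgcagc
Cox8a, chr19:7217617-7217866, minus strand: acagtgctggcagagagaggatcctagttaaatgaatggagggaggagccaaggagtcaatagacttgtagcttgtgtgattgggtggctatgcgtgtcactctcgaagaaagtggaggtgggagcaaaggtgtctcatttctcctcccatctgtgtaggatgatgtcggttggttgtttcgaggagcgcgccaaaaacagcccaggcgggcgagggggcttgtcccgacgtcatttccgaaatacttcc
Cox8b, chr7:140900447-140900696, minus strand: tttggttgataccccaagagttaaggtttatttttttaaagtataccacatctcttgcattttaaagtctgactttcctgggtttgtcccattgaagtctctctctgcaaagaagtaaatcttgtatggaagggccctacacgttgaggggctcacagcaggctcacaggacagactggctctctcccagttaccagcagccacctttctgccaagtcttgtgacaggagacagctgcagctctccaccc
The Cycs window held an NRF1 core 60 bases and a CRE 169 bases before the start. Cox8a and Cox8b held neither. Of 37 members with a promoter in use, 6 (16.2%) held the NRF1 core (Atp5g2, Atp5k, Atp5l, Cox6a1, Cycs and Sdhb), against 2.26% of all 32851 promoters. The CRE stood in 2 members (Cycs and Uqcrfs1), 5.41% against 1.55%. The ETS motif CCGGAAG stood in 9 members, 24.3% against 6.91%. CCAAT stood in 21 members, 56.8% against 33.8%, and TATAAA in 2, 5.41% against 12.4%. A member counted once if any of its promoters held the letters, whereas the share over all promoters counted each promoter. The 37 members include Cox6b2 and Cox7b2, which did not pass the filter on low counts. A match describes letters and shows no binding, and a window without one shows only that these letters are not in it.

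The libraries held 15434424 to 25355877 expected counts, and mitochondrial genes took 11.2% to 15.6% of them. The 46 tested members took 0.824% to 1.11%. AET replicate 1 stood apart, with the highest mitochondrial share and the lowest share for the members. It was the lowest of the 9 libraries in 24 of the 46 members and in 17.3% of all tested genes. AET_MET replicate 3 was the lowest in 17 members and 12.6% of all genes. SED replicate 3 was the highest in 22 members and AET replicate 3 in 19, against 12.9% and 10.99% of all genes. The median SD of log2 CPM within a group was 0.111 in SED, 0.217 in AET and 0.0886 in AET_MET for the members, and 0.155, 0.155 and 0.145 for all genes tested. Among the trained mice without metformin the members spread more widely than genes at large, and counts that involve AET are given with and without replicate 1.

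Levels are TMM-scaled CPM, counts scaled to a common library total, and changes are log2 fold changes ± SE from edgeR's quasi-likelihood test of all 9 libraries. Calls are genes whose p stayed under 0.05 after Benjamini-Hochberg adjustment over all 13944 genes. The summed level of the 46 members was 10457, 10272 and 11598 CPM in the SED libraries, 8813, 10701 and 11436 in AET and 9486, 9689.9 and 8691 in AET_MET. All 3 AET_MET sums lay below all 3 SED sums, whereas the AET sums spanned both. The median over members of log2 CPM relative to the SED mean was -0.04, -0.06 and 0.12 in SED, -0.34, -0.02 and 0.09 in AET and -0.18, -0.14 and -0.28 in AET_MET.

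**Figure D1:**
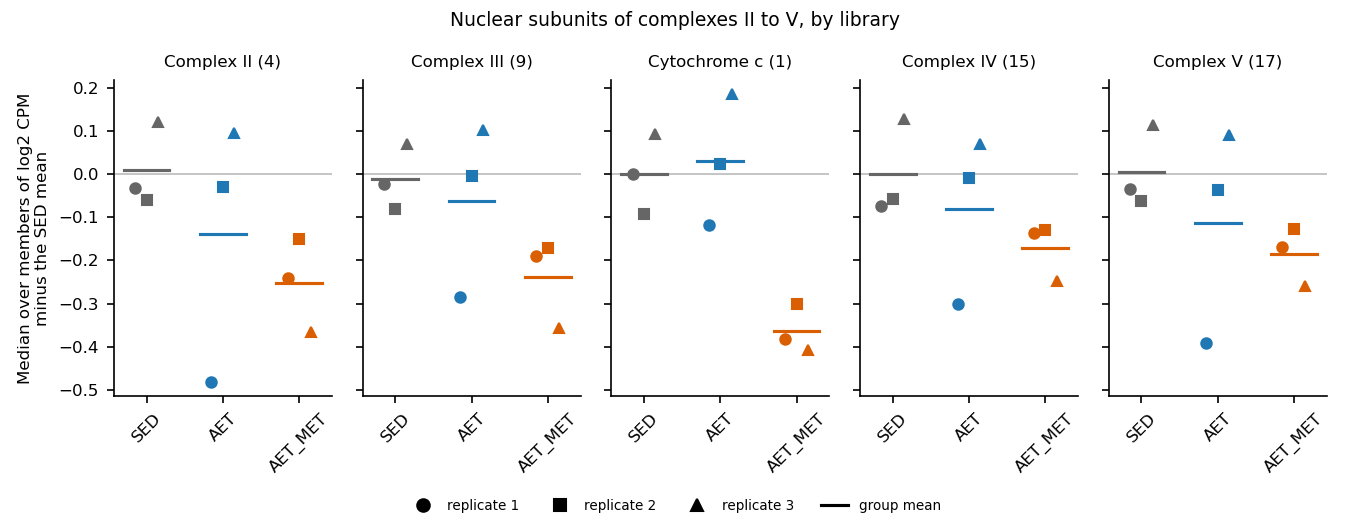
Each panel plots, for 1 complex, the median over its tested members (number in brackets) of log2 CPM minus the SED mean, 1 symbol per library and a bar for the group mean. AET replicate 1 lies below 0 in all 5 panels, AET replicates 2 and 3 lie within the SED range or above it, and the 3 AET_MET libraries lie below the SED libraries in each panel.

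Training alone (AET against SED) was compared first. None of the 46 members was called by edgeR, while 812 of all genes rose and 900 fell, a background of 12.3%. DESeq2 also called 0 members, against 12.1% of all genes given an adjusted p by DESeq2. At an unadjusted p under 0.05, 2 members were lower and 0 higher, against a background of 14.2% of genes lower. Estimates were lower for 31 members and higher for 15, with a median log2 change of -0.06 (all genes 0.01). Every AET library lay below every SED library in 3 members (6.52%; background 16.3%): Uqcrfs1, Atp5l and Atp5g2. The same 3 members were counted without AET replicate 1 (background 20.4%). Without that library the median was 0.04, with 17 estimates lower and 29 higher, so the direction of the median rested on it.

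The smallest p for AET against SED in complex III belonged to Uqcrfs1, encoding the Rieske iron-sulfur protein that takes electrons from coenzyme Q. Its levels were 208, 195 and 203 CPM (SED), 131, 183 and 189 (AET) and 178, 179 and 157 (AET_MET). The AET libraries were all lower than the SED libraries, and the AET_MET libraries lay within the AET range. The log2 change was -0.27 ± 0.12 (edgeR adjusted p = 0.162). In complex V it belonged to Atp5l, subunit g of the membrane part, at 95.2, 90.1 and 96.00 CPM (SED), 66.02, 87.9 and 80.1 (AET) and 88.5, 89.1 and 71.3 (AET_MET), with a log2 change of -0.27 ± 0.11 (edgeR adjusted p = 0.131). The lowest estimate of any member was that of Atp5e, the epsilon subunit of the rotor, chosen for naming after its values were seen. Its levels were 87.96, 83.4 and 90.8 CPM (SED), 52.4, 85.3 and 73.9 (AET) and 92.1, 87.8 and 79.6 (AET_MET). AET replicate 1 was the lowest library, and AET replicate 2 lay within the SED range. Its log2 change was -0.31 ± 0.15 (edgeR adjusted p = 0.197), and it was called as lower only without AET replicate 2.

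In AET_MET against SED, 45 of the 46 members had a lower estimate, and 1, Cycs, was called. The median log2 change was -0.19, against 0.0026 for all genes, of which 49.5% had a lower estimate. The background of calls was 4.59% of genes. DESeq2 called 4 members (Cycs, Cox6b1, Uqcrc2 and Atp5f1), all lower, against 6.72% of all genes to which DESeq2 gave an adjusted p. At an unadjusted p under 0.05, 16 members were lower and 0 higher (background 10.4% lower). Every AET_MET library lay below every SED library in 30 members (65.2%), against a background of 13.4%. By complex these were 4 of 4 in complex II, 8 of 9 in complex III, Cycs, 7 of 15 in complex IV and 10 of 17 in complex V. The 16 others overlapped, and none lay wholly above SED. Median log2 changes were -0.24, -0.24, -0.17 and -0.18 in complexes II to V. Leaving out 1 library gave 0 to 5 calls by edgeR: 5 without AET replicate 1 (Atp5g3, Cox6b1, Cyc1, Cycs and Uqcrc2) and 0 without SED replicate 1, 2 or 3, AET replicate 2, or AET_MET replicate 1 or 3.

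Metformin among trained mice (AET_MET against AET) was tested in the same fit, and this comparison shares the AET_MET libraries with the one above. Cycs was again the 1 member called by edgeR (background 3.43%), and DESeq2 called 7, all lower (Cycs, Cox6b1, Sdha, Uqcrh, Uqcrq, Atp5d and Atp5h), against 8.24% of those with a DESeq2 adjusted p. At an unadjusted p under 0.05, 13 members were lower and 0 higher (background 10.6% lower). Estimates were lower for 36 members and higher for 10, with a median log2 change of -0.14 (all genes 0.00072). Every AET_MET library lay below every AET library in 12 members (26.1%; background 13.2%). They were Sdha, Uqcrb, Uqcrh, Uqcrq, Cycs, Cox6a1, Cox6a2, Cox6b1, Atp5d, Atp5f1, Atp5h and Atp5j, and in all 12 the AET_MET libraries lay below the SED libraries too. Without AET replicate 1 the count was 35 members (76.1%; background 19.4%), the median was -0.22, and Uqcrq was called beside Cycs. Leaving out a library cannot lower this count, and AET replicate 1 was singled out for its low levels in the members. Leaving out any other library gave 12 to 15 members (backgrounds 13.2% to 18.9%). No member was called without AET replicate 2 or 3 or any of the AET_MET replicates.

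**Figure D2:**
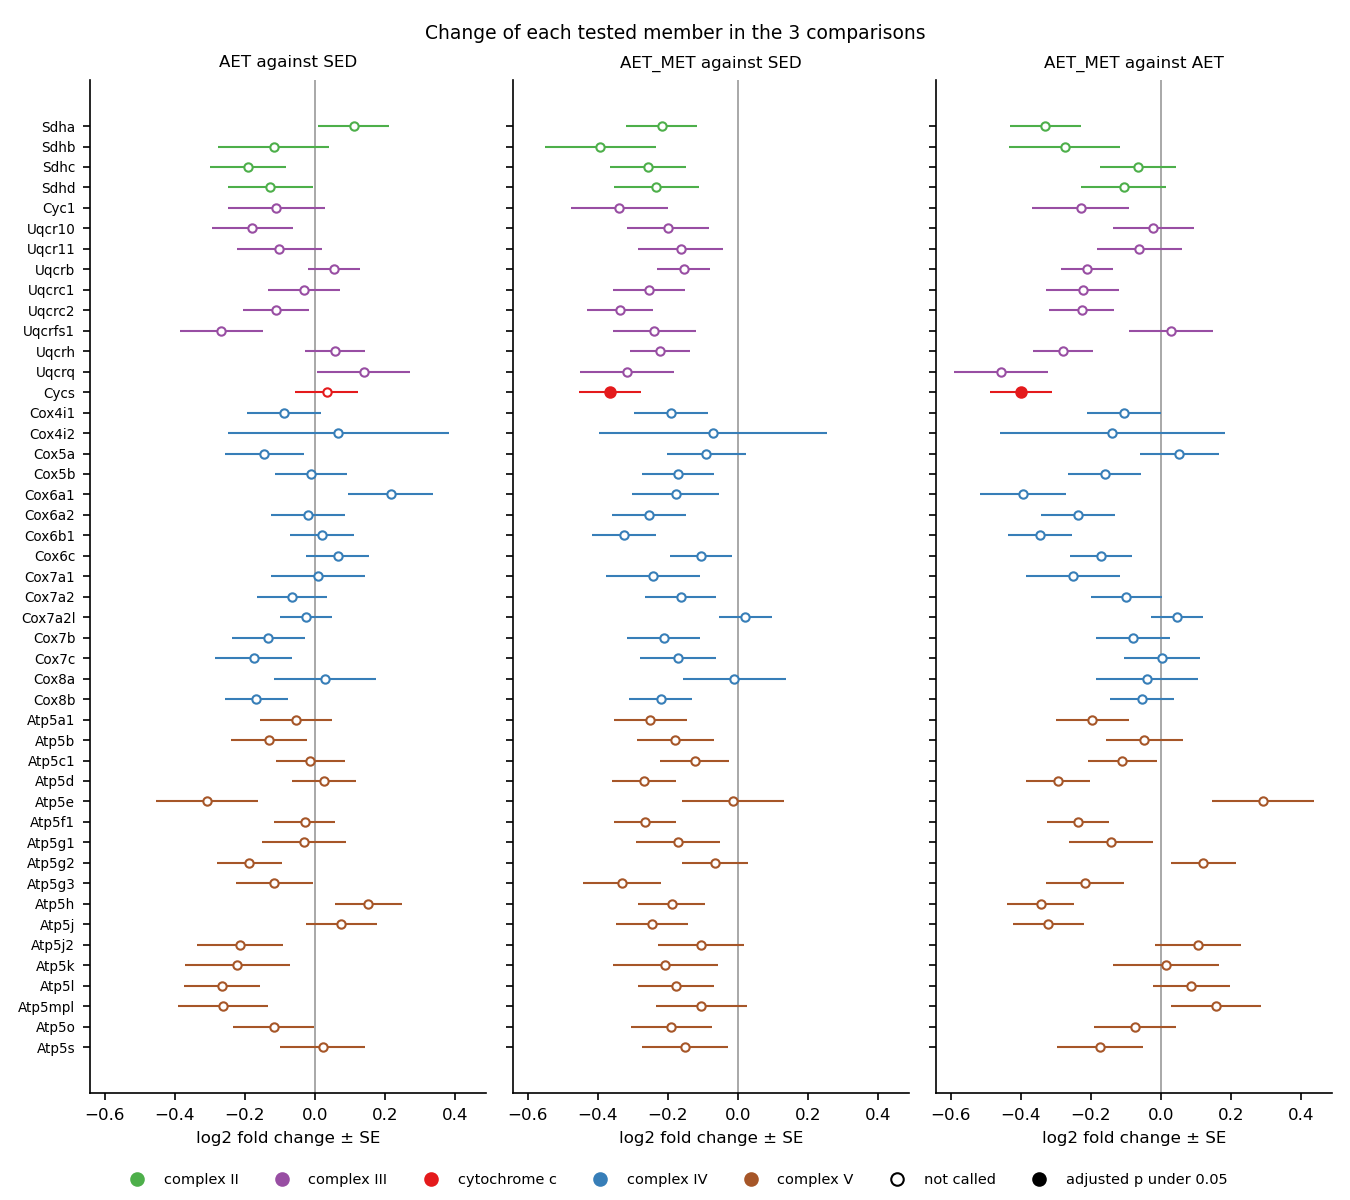
Points are log2 fold changes of the 46 tested members and bars their SE (horizontal axes), coloured by complex, in AET against SED, AET_MET against SED and AET_MET against AET. Filled points passed an adjusted p under 0.05, which only Cycs did, in both comparisons of AET_MET, and 45 of 46 points lie left of 0 in AET_MET against SED.

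Cycs encodes somatic cytochrome c, the carrier that complex IV oxidizes, and lies on chromosome 6 at 50562563 to 50566538 (GRCm38). Its levels were 238, 223 and 254 CPM (SED), 219.8, 242 and 271 (AET) and 183, 193 and 179.8 (AET_MET). The 3 AET_MET libraries were the 3 lowest and nearly equal, and the SED and AET libraries overlapped. Cycs fell by 0.36 ± 0.09 on the log2 scale against SED (95% interval -0.56 to -0.17, edgeR adjusted p = 0.0376). Against AET it fell by 0.40 ± 0.09 (95% interval -0.59 to -0.21, edgeR adjusted p = 0.0323). AET against SED stood at 0.03 ± 0.09 (edgeR adjusted p = 0.835). The estimate was negative under all 19 alternatives of both AET_MET comparisons. The call against SED held in 11 of 19 (edgeR or DESeq2 adjusted p 0.00324 to 0.497), being lost without SED replicate 1, 2 or 3, AET replicate 2, or AET_MET replicate 1 or 3. The call against AET held in 12 of 19 (adjusted p 0.00120 to 0.149), being lost without AET replicate 2 or 3 or any of the AET_MET replicates. Both calls were also lost with library sizes alone and with a slow-fiber covariate.

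**Figure D3:**
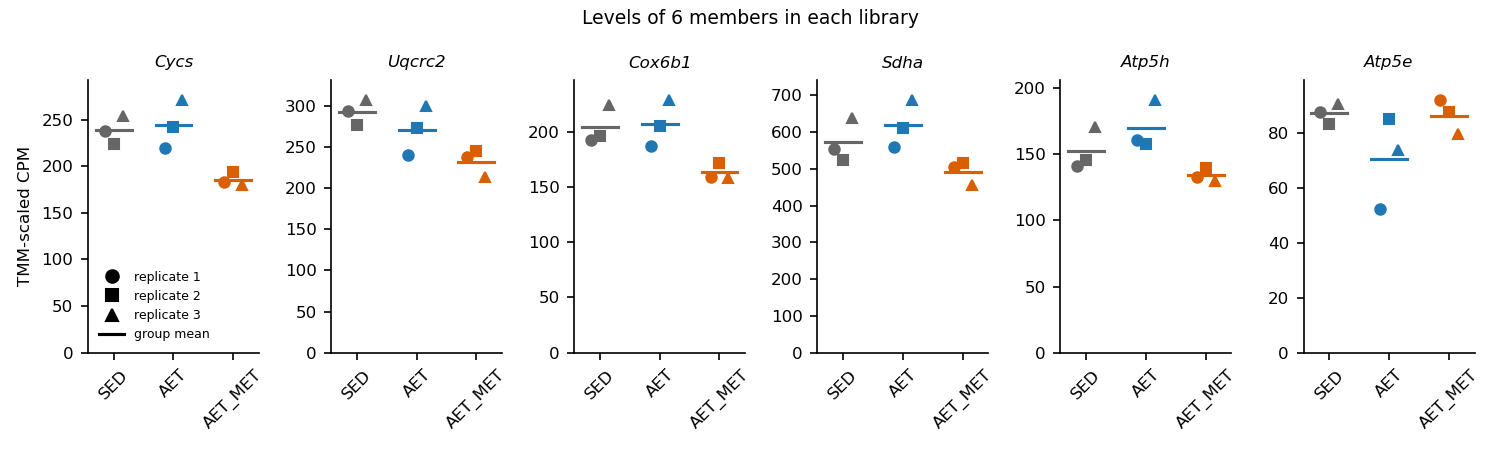
TMM-scaled CPM (vertical axes, from 0) of 6 members in each library, with a bar for the group mean. The AET_MET libraries lie below all others for Cycs, Cox6b1, Sdha and Atp5h and overlap AET replicate 1 for Uqcrc2, whereas for Atp5e AET replicate 1 is the lowest library.

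Complex II is succinate dehydrogenase, which links the citric acid cycle to the respiratory chain. Sdha, its flavin-binding catalytic subunit, stood at 554, 525 and 639.7 CPM (SED), 559, 610.3 and 687 (AET) and 504, 517 and 456 (AET_MET). All AET_MET libraries lay below all others, with log2 changes of -0.22 ± 0.10 against SED and -0.33 ± 0.10 against AET (edgeR adjusted p = 0.248 and 0.0881). Sdhb, the iron-sulfur subunit, stood at 216, 227 and 260.5 CPM (SED), 164, 228 and 257 (AET) and 181, 201 and 154 (AET_MET). Its log2 change against SED, -0.39 ± 0.16, was the lowest estimate of any member in that comparison, and it missed the threshold (edgeR adjusted p = 0.195). The membrane anchors Sdhc and Sdhd followed: Sdhc stood at 126, 122 and 136 CPM (SED), 90.4, 121 and 123 (AET) and 103, 115 and 103 (AET_MET), and Sdhd at 126, 119.6 and 126 CPM (SED), 89.6, 122 and 129 (AET) and 111, 112 and 93.3 (AET_MET). In both, AET replicate 1 was the lowest library, so that AET and AET_MET overlapped. Against SED their log2 changes were -0.26 ± 0.11 and -0.23 ± 0.12 (edgeR adjusted p = 0.201 and 0.307). In AET against SED the smallest p of the complex was that of Sdhc, at -0.19 ± 0.11 (edgeR adjusted p = 0.268).

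Complex III, cytochrome bc1, passes electrons from coenzyme Q to cytochrome c. Uqcrc1, encoding a core protein, stood at 398, 384 and 448 CPM (SED), 346, 409 and 449 (AET) and 360.3, 352 and 319.6 (AET_MET). The other core protein gene, Uqcrc2, had the smallest p of the complex against SED, at 295, 277 and 307 CPM (SED), 240.4, 274 and 299.8 (AET) and 238, 245 and 213 (AET_MET). Every AET_MET library lay below every SED library in both. The log2 change of Uqcrc2 was -0.34 ± 0.09 (edgeR adjusted p = 0.0609), a miss by edgeR that DESeq2 called (DESeq2 adjusted p = 0.0135). Cyc1, the cytochrome subunit that hands electrons to cytochrome c, stood at 148, 146 and 157 CPM (SED), 105, 147 and 165 (AET) and 125, 124 and 107 (AET_MET). The AET_MET libraries were lower than SED, and AET replicate 1 was lower still, with a log2 change of -0.34 ± 0.14 for AET_MET against SED (edgeR adjusted p = 0.196). Uqcrq, encoding a small subunit, had the lowest estimate of any member in AET_MET against AET. It stood at 64.6, 76.3 and 85.3 CPM (SED), 67.3, 83.6 and 98.3 (AET) and 62.3, 62.2 and 57.1 (AET_MET), below all SED and AET libraries in AET_MET, with a log2 change of -0.46 ± 0.13 against AET (edgeR adjusted p = 0.0823). Uqcrb and Uqcrh, also small subunits, likewise lay lower in every AET_MET library than in every other. Uqcr11 was the member of this complex whose AET_MET and SED libraries overlapped.

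Complex IV, cytochrome c oxidase, reduces oxygen to water. Its smallest p in both comparisons of AET_MET was that of Cox6b1, a subunit on the side facing cytochrome c, at 193, 197 and 224 CPM (SED), 188, 205 and 229 (AET) and 159.5, 172 and 158 (AET_MET). The AET_MET libraries were the 3 lowest. Cox6b1 had log2 changes of -0.32 ± 0.09 against SED and -0.34 ± 0.09 against AET (edgeR adjusted p = 0.0624 and 0.0576). DESeq2 called both (DESeq2 adjusted p = 0.0171 and 0.0102). In AET against SED the smallest p of the complex was that of Cox8b, the muscle isoform of subunit 8, at -0.17 ± 0.09 (edgeR adjusted p = 0.246). Cox4i1, the common isoform of subunit 4, stood at 306, 308 and 349 CPM (SED), 252, 318 and 336 (AET) and 291, 288 and 264 (AET_MET), with the AET_MET libraries below SED and above AET replicate 1. Cox4i2, its isoform of lung and smooth muscle, averaged 0.893 ± 0.285 CPM (SED), 0.927 ± 0.208 (AET) and 0.846 ± 0.111 (AET_MET; mean ± SD, n = 3). Its SE, 0.33 on the log2 scale against SED, exceeded the changes of the other members of the complex. Cox7b stood at 177, 179 and 203 CPM (SED), 143, 178 and 189 (AET) and 168, 166 and 149 (AET_MET), with every AET_MET library below every SED library.

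Cox7a2l was the exception among the 46 members in AET_MET against SED. It encodes SCAF1, a relative of the Cox7a subunits that joins complexes III and IV into supercomplexes. Its levels were 78.5, 79.1 and 90.7 CPM (SED), 79.3, 79.97 and 84.97 (AET) and 83.4, 84.3 and 84.5 (AET_MET). The groups overlapped, and the estimate was 0.02 ± 0.07 (95% interval -0.14 to 0.18, edgeR adjusted p = 0.903). Against AET it was 0.05 ± 0.07 (edgeR adjusted p = 0.758). Its AET_MET libraries spanned a narrow range inside the SED range, unlike the members with separate libraries above.

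Atp5b and Atp5a1, the catalytic beta and the alpha subunit, had the highest levels of complex V per kb of exon. Atp5b stood at 1604, 1573 and 1729.9 CPM (SED), 1235, 1581 and 1666 (AET) and 1497, 1510.2 and 1331 (AET_MET). Every AET_MET library lay below every SED library, and AET replicate 1 lay below them all. Atp5b had a log2 change of -0.18 ± 0.11 for AET_MET against SED (edgeR adjusted p = 0.390). The smallest p against SED belonged to Atp5f1, subunit b of the peripheral stalk, at 351, 332 and 370.0 CPM (SED), 311, 342 and 379 (AET) and 296, 302 and 278 (AET_MET), with a log2 change of -0.27 ± 0.09 (edgeR adjusted p = 0.107, DESeq2 adjusted p = 0.0419). Against AET it belonged to Atp5h, subunit d of the same stalk, at 142, 146 and 171 CPM (SED), 161, 158 and 191 (AET) and 133, 139 and 129.7 (AET_MET). Its AET_MET libraries were the 3 lowest, with a log2 change of -0.34 ± 0.10 (edgeR adjusted p = 0.0648, DESeq2 adjusted p = 0.0193). Atp5j, the stalk factor F6, and Atp5d, the delta subunit of the rotor, also had their 3 lowest libraries in AET_MET, and with Atp5f1 and Atp5h they were the 4 of complex V below both other groups.

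The 3 genes Atp5g1, Atp5g2 and Atp5g3 encode the same mature c subunit of the membrane ring. Atp5g1 stood at 264, 273 and 293 CPM (SED), 212, 301 and 299 (AET) and 260.2, 249 and 227 (AET_MET). Atp5g3 stood at 156, 164 and 174 CPM (SED), 123, 158 and 175 (AET) and 138, 133 and 122 (AET_MET). In both the AET_MET libraries lay below SED, with log2 changes of -0.17 ± 0.12 and -0.33 ± 0.11 (edgeR adjusted p = 0.461 and 0.112). Atp5g2 differed in its order, at 94.9, 95.8 and 109 CPM (SED), 76.01, 92.7 and 94.7 (AET) and 97.8, 90.8 and 98.2 (AET_MET). Its AET libraries lay below SED, and its AET_MET libraries overlapped both, with log2 changes of -0.19 ± 0.09 for AET against SED and -0.06 ± 0.09 for AET_MET against SED (edgeR adjusted p = 0.207 and 0.745). Atp5e with Atp5g2, Atp5j2, Atp5k, Atp5l and Atp5mpl of the membrane part made up the 6 members of the complex with a higher estimate in AET_MET than in AET, from 0.02 to 0.29, none of them called.

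Muscle and ubiquitous isoforms of 3 complex IV subunits were compared within each library, where scaling between libraries plays no part. Cox6a2, the heart and muscle form, stood at 332, 373 and 419 CPM (SED), 329.9, 418 and 361 (AET) and 326, 322 and 295 (AET_MET), and Cox6a1, the ubiquitous form, at 9.78, 9.95 and 10.01 CPM (SED), 9.78, 12.5 and 12.3 (AET) and 9.44, 9.40 and 7.54 (AET_MET). The log2 ratio of counts of Cox6a2 over Cox6a1 was 5.08, 5.23 and 5.39 in SED, 5.08, 5.07 and 4.88 in AET and 5.11, 5.10 and 5.29 in AET_MET. All 3 AET ratios lay below all 3 AET_MET and SED ratios, though the highest AET ratio and the lowest SED ratio, both in replicate 1, rounded to the same value. The mean differed by -0.23 for AET against SED, 0.16 for AET_MET against AET and -0.07 for AET_MET against SED. Two-sided exact permutation tests gave p = 0.1, 0.1 and 0.7, where 0.1 is the smallest p that 3 against 3 libraries can give, and 0.3, 0.3 and 0.787 after Benjamini-Hochberg adjustment over the 9 tests of the 3 ratios.

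Cox7a1 stood at 97.8, 110.3 and 128 CPM (SED), 90.2, 113 and 135 (AET) and 97.8, 94.9 and 91.2 (AET_MET). Cox7a2 stood at 72.1, 70.02 and 80.8 CPM (SED), 58.8, 76.6 and 77.5 (AET) and 67.7, 67.7 and 63.7 (AET_MET). Both were lower in AET_MET than in SED by estimates that missed the threshold, -0.24 ± 0.14 and -0.16 ± 0.10 (edgeR adjusted p = 0.343 and 0.396). For subunit 7a the log2 ratio of Cox7a1, the muscle form, over Cox7a2, the ubiquitous form, was 0.44, 0.66 and 0.66 in SED, 0.62, 0.56 and 0.80 in AET and 0.53, 0.49 and 0.52 in AET_MET. Exact permutation p-values were 0.6 for AET against SED, 0.4 for AET_MET against SED and 0.1 for AET_MET against AET (0.771, 0.6 and 0.3 adjusted). The AET_MET ratios lay within the SED range and below the AET ratios. Cox8b stood at 150.2, 152 and 173 CPM (SED), 124, 149 and 150.3 (AET) and 133, 138 and 136 (AET_MET). Cox8a stood at 16.1, 18.6 and 18.8 CPM (SED), 13.98, 20.7 and 19.8 (AET) and 16.96, 20.4 and 15.8 (AET_MET). Every AET_MET library lay below every SED library in Cox8b, at -0.22 ± 0.09, and not in Cox8a, at -0.01 ± 0.15 (edgeR adjusted p = 0.186 and 0.981). For subunit 8 the log2 ratio of Cox8b over Cox8a was 3.22, 3.03 and 3.20 in SED, 3.14, 2.85 and 2.92 in AET and 2.97, 2.76 and 3.11 in AET_MET. Its groups overlapped, with exact permutation p = 0.2, 0.2 and 0.9 in the same order (0.360, 0.360 and 0.9 adjusted). Per kb of exon the muscle form exceeded the ubiquitous one by a mean ratio of 31.7 ± 3.33 for subunit 6a, 1.85 ± 0.157 for 7a and 13.6 ± 0.980 for 8 in SED (SD, n = 3). The testis forms Cox6b2, Cox7b2 and Cox8c were not tested: Cox7b2 and Cox8c had 0 counts in all 9 libraries, and Cox6b2 had 0 to 4. The second locus with the symbol Atp5o had 5.37 expected counts over all libraries together.

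**Figure D4:**
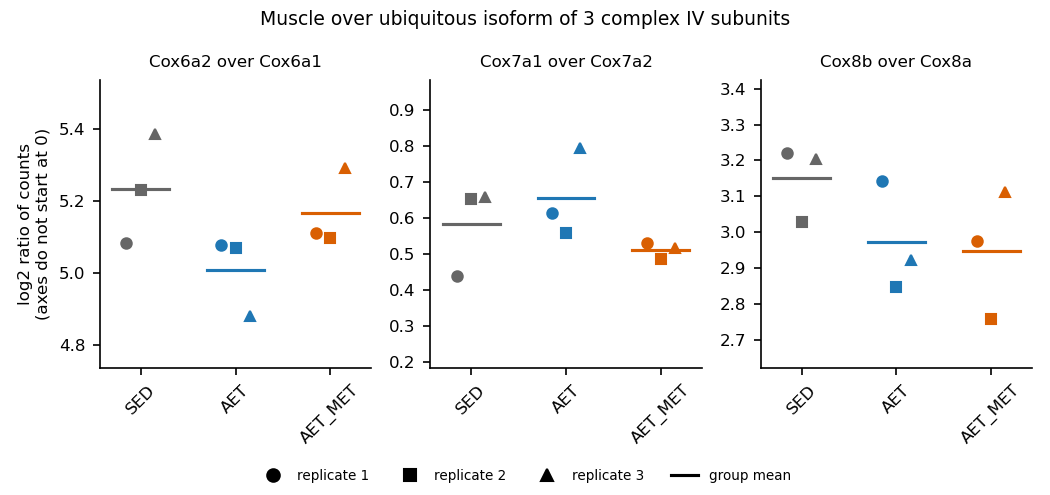
The log2 ratio of muscle over ubiquitous isoform counts (vertical axes, each spanning the same width and none starting at 0) in each library, with a bar for the group mean. The 3 AET libraries have the lowest Cox6a2 over Cox6a1 ratios, and the other ratios overlap between SED and both trained groups.

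Members differed widely in level. Per kb of exon length and averaged over the 9 libraries, Atp5b was the highest member at 796 CPM per kb, followed by Cox6a2 at 519, Atp5a1 at 469, Cox8b at 403 and Cox4i1 at 394. At the low end stood Cox6a1 at 17.6, Atp5s, encoding factor B, at 5.00 and Cox4i2 at 1.13. Members with exon lengths under 1000 bases (23) had a median log2 change of -0.18 and longer ones (23) of -0.24 in AET_MET against SED. In AET_MET against AET these were -0.10 and -0.17, and in AET against SED -0.09 and -0.03. Among all genes under 1000 bases the medians were -0.07, -0.03 and -0.04 in the same order. Both length classes had negative medians in all 3 comparisons.

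Slow-fiber markers had lower estimates in AET_MET against SED, as had most members. Slow oxidative fibers hold more mitochondria than fast glycolytic ones. The summed level of 10 slow-fiber genes was 870.1, 1049 and 896 CPM (SED), 425, 374 and 1325 (AET) and 148, 749.7 and 305 (AET_MET), with the 3 AET_MET sums below the SED sums. In 7 of the 10 every AET_MET library lay below every SED library (background 13.4%). None of the 10 was called by edgeR or DESeq2 or had an unadjusted p under 0.05 in that comparison. The 10 fast-fiber genes summed to 131634 to 152450.4 CPM over all libraries. By edgeR none of them was called in any comparison. DESeq2 called 1, the myosin gene Myh2, as lower in AET_MET against AET (background 8.24%). Fast-fiber estimates were lower for 9 of 10 genes in AET_MET against SED (median -0.08). Against AET 5 were lower and 5 higher (median -0.02, lowest estimate -0.99). In bulk tissue, fewer fibers of a type and less RNA per fiber cannot be told apart. With the mean log2 CPM of the slow-fiber list as a covariate, the median of the members was -0.13 against SED, with 42 of 46 lower, and -0.09 against AET, with 33 lower. Cycs then stood at -0.27 and -0.33 and was not called (edgeR adjusted p = 0.497 and 0.149). The covariate itself differed between groups, at 5.65 to 5.87 in SED, 4.54 to 6.25 in AET and 2.54 to 5.47 in AET_MET. This fit therefore cannot tell the slow-fiber level apart from the group. The part of fiber type in the members' levels was not tested.

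Other cell types differed between the groups too. The 5 fibroblast and matrix genes summed to 975 to 1329 CPM (SED), 793 to 865 (AET) and 655 to 724 (AET_MET). By edgeR 2 of them fell in AET against SED, 2 in AET_MET against SED, and 1 fell from AET to AET_MET. The 5 tendon genes summed to 309 to 505 CPM (SED), 133 to 303 (AET) and 89.6 to 211 (AET_MET), with none called by edgeR, 3 at an unadjusted p under 0.05 in AET_MET against SED and 1 called by DESeq2. The 5 Schwann cell genes summed to 54.5 to 61.7 CPM (SED), 97.9 to 159 (AET) and 41.7 to 88.7 (AET_MET), highest in AET, where 1 was called against SED by edgeR. The 5 endothelial genes summed to 178 to 205 CPM (SED), 204 to 236 (AET) and 157 to 188 (AET_MET), so that AET and AET_MET did not overlap. Of them 1, the receptor gene Kdr, rose in AET against SED and fell in AET_MET against AET by edgeR, where 4 of 5 were lower at an unadjusted p under 0.05. The 5 smooth muscle and pericyte genes summed to 496 to 583 CPM (SED), 581 to 685 (AET) and 487 to 583 (AET_MET). In AET against SED 1 of them rose by edgeR and 3 by DESeq2, and in AET_MET against AET edgeR called none, DESeq2 called 3 as lower and 3 were lower at an unadjusted p under 0.05. Sums of macrophage, blood and adipocyte genes overlapped between SED and AET_MET. Ucp1, which defines brown fat, had 0 counts in all 9 libraries. The part of these cell types in the members' levels was not tested.

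The other genes of the pathway were taken from 7 lists. Coenzyme Q carries electrons from complex II to complex III. Of 13 genes for its synthesis and handling, by edgeR 2 fell in AET_MET against SED and none rose (background 4.59%). By edgeR 1 fell in AET_MET against AET (background 3.43%), and none was called in AET against SED (background 12.3%). In AET against SED DESeq2 called Coq9 as lower and Coq10b as higher (background 12.1%), and 2 had an unadjusted p under 0.05. Coq7, the hydroxylase of a late step, stood at 23.9, 23.4 and 24.8 CPM (SED), 22.4, 25.8 and 25.4 (AET) and 15.9, 18.2 and 15.4 (AET_MET), the AET_MET libraries being the 3 lowest. Coq7 fell by 0.54 ± 0.09 against SED and by 0.57 ± 0.09 against AET on the log2 scale (edgeR adjusted p = 0.00764 and 0.0120). Those calls held in 18 and 16 of 19 alternatives, the first being lost with the slow-fiber covariate and the second also without AET replicate 3 or AET_MET replicate 3. Coq9, whose product binds that hydroxylase, stood at 229, 224 and 231 CPM (SED), 165, 192 and 207 (AET) and 176, 170.5 and 160.1 (AET_MET) and fell by 0.43 ± 0.09 against SED (edgeR adjusted p = 0.0164), a call held in 13 of 19 alternatives and lost without SED replicate 2 or 3 or AET_MET replicate 1 or 3 (adjusted p up to 0.297). Coq10b missed the threshold of edgeR in AET against SED, at 1.503 ± 0.39 (edgeR adjusted p = 0.0508), and in AET_MET against SED, at 1.365 ± 0.40 (edgeR adjusted p = 0.111). DESeq2 called it as higher in both comparisons. In AET_MET against AET, DESeq2 called Coq8a as lower beside Coq7, where edgeR gave -0.57 ± 0.18 (edgeR adjusted p = 0.106). The list had a median of -0.20 in AET_MET against SED, with 10 of 13 estimates lower.

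All calls among the assembly factors lay in the longest list, that of complex IV. The lists of complexes II, III and V held 4, 6 and 5 tested genes, too few for 0 calls to set complex IV apart. The edgeR background was 12.3% for AET against SED, 4.59% for AET_MET against SED and 3.43% between AET_MET and AET. Of 26 tested genes for heme insertion and complex IV assembly, 1 rose and 1 fell in AET against SED: Cmc2 from 6.68 ± 0.569 to 9.08 ± 0.879 CPM, and Surf1, a factor of early assembly, from 14.00 ± 1.37 to 10.3 ± 1.28 CPM (SD, n = 3; edgeR adjusted p = 0.0244 and 0.0255). These calls held in 15 and 14 of 19 alternatives (adjusted p up to 0.0905 and 0.0889). Both were lost without SED replicate 1 or 3 or AET replicate 2, that of Cmc2 also without AET replicate 3 and that of Surf1 also without AET replicate 1. In AET_MET against SED, Coa7, another assembly factor, rose from 11.4 ± 0.936 to 14.97 ± 1.07 CPM and Taco1, an activator of mt-Co1 translation, fell from 17.9 ± 0.147 to 14.1 ± 0.640 CPM (edgeR adjusted p = 0.0477 and 0.0449; held in 9 and 8 of 19 alternatives, with adjusted p up to 0.357 and 0.500). The call of Coa7 was lost without any 1 of the 9 libraries, and that of Taco1 without any but AET replicate 1 or 2. In AET_MET against AET edgeR and DESeq2 called none of the list and 4 had an unadjusted p under 0.05, the smallest that of the copper chaperone Cox17, at -0.28 ± 0.08 (edgeR adjusted p = 0.0649). The 4 tested factors of complex II, 6 of complex III and 5 of complex V gave 0 calls by edgeR and by DESeq2 in each comparison. At an unadjusted p under 0.05 there were 1 of these 15 in AET against SED, 2 in AET_MET against SED, and 4 between AET_MET and AET. Their smallest p-values belonged to Sdhaf2, Lyrm7 and Atpaf2 in AET against SED, at -0.13 ± 0.08, 0.39 ± 0.19 and -0.23 ± 0.10. In AET_MET against SED they belonged to Sdhaf2, Uqcc1 and Atpif1, at -0.22 ± 0.08, -0.23 ± 0.08 and -0.14 ± 0.12. In AET_MET against AET they belonged to Sdhaf4, Lyrm7 and Atpif1, at 0.28 ± 0.19, -0.53 ± 0.19 and -0.35 ± 0.12. Atpif1 encodes the inhibitor of ATP hydrolysis by complex V.

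Of the 6 subunits of complexes III to V encoded by mitochondrial DNA, none was called by edgeR in any comparison. DESeq2 called mt-Co2 as lower in AET against SED (background 12.1%), and mt-Co2 and mt-Atp6 as higher in AET_MET against AET (background 8.24%). At an unadjusted p under 0.05 there were 1, 1 and 2 of the 6 in AET against SED, AET_MET against SED and AET_MET against AET. mt-Co1, the catalytic subunit of complex IV, stood at 41540.4, 41648 and 49373 CPM (SED), 44793, 41575 and 44124 (AET) and 39174, 38801 and 37657 (AET_MET). The AET_MET libraries were the 3 lowest, with a log2 change of -0.20 ± 0.09 against SED (edgeR adjusted p = 0.237). mt-Co2, another core subunit, stood at 73.7, 85.8 and 76.2 CPM (SED), 18.6, 38.04 and 23.7 (AET) and 156, 54.1 and 61.2 (AET_MET). Its AET libraries were the 3 lowest, and it had the smallest p of the 6 in AET against SED, at -1.55 ± 0.48 (edgeR adjusted p = 0.0928) and in AET_MET against AET, at 1.75 ± 0.48 (edgeR adjusted p = 0.107). Mitochondrial genes have nuclear copies, so their counts depend on how shared reads were split. In AET_MET against SED 3 of the 6 mitochondrial estimates were lower and 3 higher, beside 45 and 1 of the 46 members. That count gives mt-Co2, at 18.6 to 156 CPM, the same weight as mt-Co1, at 37657 to 49373 CPM. Whether reads of mt-Co2 were assigned to nuclear copies was not tested.

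Regulators of mitochondrial genes went both ways. Of 14, by edgeR 2 rose and 1 fell in AET against SED (background 12.3%), and 1 rose and 1 fell in AET_MET against SED (background 4.59%). In AET_MET against AET, 0 were called by edgeR and by DESeq2 (backgrounds 3.43% and 8.24%). There 0 also had an unadjusted p under 0.05, and the smallest p was that of the orphan receptor gene Esrrg, at -0.27 ± 0.13. Ppargc1b, a coactivator of respiratory genes, stood at 4.25, 4.49 and 5.03 CPM (SED), 8.45, 7.85 and 10.5 (AET) and 9.19, 6.62 and 6.28 (AET_MET). It rose by 0.96 ± 0.16 in AET and by 0.67 ± 0.17 in AET_MET against SED (edgeR adjusted p = 0.00319 and 0.0397; held in 19 and 11 of 19 alternatives). The second call was lost without any SED library, AET replicate 2, or AET_MET replicate 1 or 3. Ppara, encoding a nuclear receptor for fatty acid use, stood at 9.07, 11.4 and 13.8 CPM (SED), 7.54, 8.35 and 9.49 (AET) and 6.85, 8.24 and 5.12 (AET_MET) and fell by 0.76 ± 0.19 in AET_MET against SED (edgeR adjusted p = 0.0421; held in 8 of 19, and lost without any library but SED replicate 1 or AET_MET replicate 2). In AET, Ppargc1a rose by 0.58 ± 0.13 and the related coactivator gene Pprc1 fell by 0.46 ± 0.14 (edgeR adjusted p = 0.0126 and 0.0445; held in 17 and 5 of 19). The call of Ppargc1a was lost when SED replicate 2 or AET replicate 3 was left out, that of Pprc1 without any library but SED replicate 1. In the same comparison 0 of the 46 members were called.

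**Figure D5:**
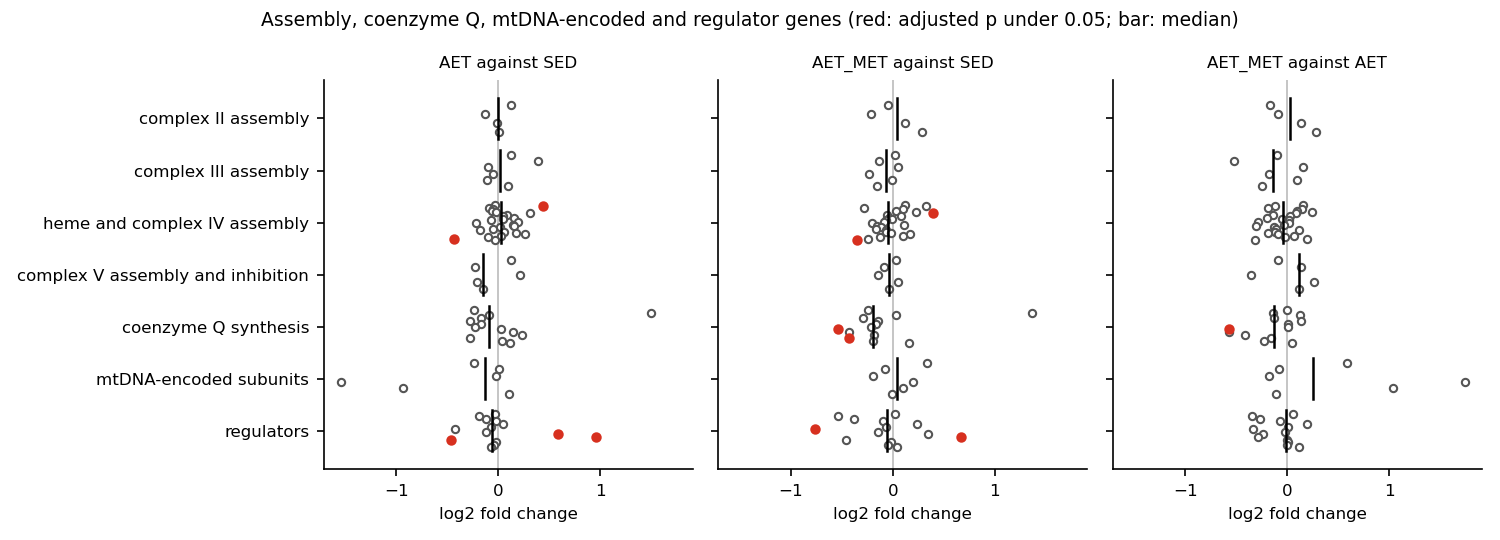
Log2 fold changes (horizontal axes) of the tested genes of the 7 lists in the 3 comparisons, 1 point per gene, filled red where the adjusted p was under 0.05, with a bar at the list's median. Coq7 is the leftmost red point of the coenzyme Q list in both comparisons of AET_MET, and Ppargc1b and Ppargc1a are the red points right of 0 among the regulators in AET against SED.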

How the data were processed

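RNA sequencing of left gastrocnemius was done from total RNA with a SMARTER mRNA-Seq kit, per the labels' protocols. The authors deposited expected counts per gene, as RSEM gives them, 1 column per library. The submitters' processing notes name STAR 2.5.3a, RSEM 1.3.0, edgeR 3.34.0 and GRCm38, with no role or order. Which annotation and strand setting were used is not stated, so reads of overlapping antisense genes cannot be told apart from those of a member. RSEM divides reads that fit several genes, and pseudogenes or near-identical copies can take or give reads. Libraries summed to 15434424 to 25355877 expected counts, and 4.85% to 5.53% of a library's gene values were not whole. The 3333 identifiers without a symbol in the annotation used stayed in the fit.

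Expected counts were rounded to whole numbers and scaled by TMM, and edgeR 4.0.16 (R 4.3.3, limma 3.58.1) tested all 9 libraries in 1 quasi-likelihood fit with 6 residual degrees of freedom after its default filter on low counts, with a common biological coefficient of variation of 0.134. P-values were adjusted over all 13944 genes. The method was tested on simulated data, for AET against SED only. Its power for changes as small as those of the members is not reported here. Intervals cover 95%. Ratios of isoforms were compared with exact permutation tests. A gene was called at an adjusted p under 0.05. Shares called across all genes are given as the background.

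Members, lists and tests were chosen with earlier results of these data known. Named with values were members called in a comparison, in each complex the member with the highest mean CPM and those with the smallest p, isoform sets, Sdha to Sdhd, Cyc1 and Cycs. From each pathway list the called genes were named, at most 4, or otherwise the gene with the smallest p. Atp5e, Coq8a, Kdr, Myh2 and mt-Atp6 were added after their values were seen, as were the members listed by whether their libraries overlapped. Promoter sequences come from a RefSeq table (GRCm38.p6), of which promoters of 37 of 50 members were used. Member promoters on chromosome 18, where Atp5a1 lies, were left out. Alternatives were other scalings, library sizes alone, TMM without mitochondrial genes, DESeq2 1.42.0, no filter or a stricter one, fits of only the groups compared, a replicate block, a slow-fiber covariate and leaving out each library. A further 8 genes match the pattern, are not protein-coding and were left out.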

Additional observations from a re-analysis of the deposited data

How the results depend on the processing

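In AET_MET against SED, where edgeR called 1 member, 4 were called with DESeq2 (Atp5f1, Cox6b1, Cycs and Uqcrc2), 4 with no filter (Atp5g3, Cox6b1, Cycs and Uqcrc2), 2 with at least 5 CPM in 3 libraries (Cox6b1 and Cycs), 4 with only the 2 groups compared (Atp5g3, Cyc1, Cycs and Uqcrc2), 0 with library sizes alone and 0 with the slow-fiber covariate. Leaving out 1 library gave 0 to 5, with 5 without AET replicate 1 (Atp5g3, Cox6b1, Cyc1, Cycs and Uqcrc2) and 0 without SED replicate 1, 2 or 3, AET replicate 2 or AET_MET replicate 1 or 3. In AET_MET against AET, where edgeR called 1, 2 were called with upper-quartile scaling (Cox6b1 and Cycs), 7 with DESeq2, 5 with no filter (Atp5h, Atp5j, Cox6b1, Cycs and Sdha), 4 with at least 5 CPM in 3 libraries (Atp5h, Cox6b1, Cycs and Uqcrh), 0 with library sizes alone and 0 with the slow-fiber covariate. Leaving out 1 library gave 0 to 2, with 0 without AET replicate 2 or 3 or any AET_MET replicate. In AET against SED the count was 0 except without AET replicate 2, where Atp5e was called (0 to 1). The cause was not tested for any of these.

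The median log2 change of the members was -0.25 to -0.09 in AET_MET against SED and -0.22 to -0.06 in AET_MET against AET under all 19 alternatives, and -0.14 to 0.04 in AET against SED. Library sizes alone raised the median of all genes by 0.10 and 0.09 in the comparisons of AET_MET with SED and AET, and the members stayed 0.20 and 0.15 below it, with 40 and 28 of 46 estimates lower. The count of members with every AET_MET library below every AET library was 12, and 35 without AET replicate 1, an alternative added after seeing the data. It was 12 to 15 without any other library. Differences in isoform ratio moved by less than 1 SD with unrounded counts and without each library, and 3 of the 9 changed sign without a library: Cox6a2 over Cox6a1 in AET_MET against SED (to 0.0088 without SED replicate 3), Cox7a1 over Cox7a2 in AET against SED (to -0.0002 without SED replicate 1) and Cox8b over Cox8a in AET_MET against AET (to 0.062 without AET replicate 1 and 0.071 without AET_MET replicate 2). With the replicate block, Cycs was called in both comparisons of AET_MET and no member in AET against SED, with medians of -0.19, -0.13 and -0.06. Libraries with the same number correlated at -0.05 to 0.18 in their deviations from the group means, and others at -0.17 to 0.14, so the numbers were not shown to pair the samples. Among the pathway genes the block ended the edgeR calls of Taco1, Ppargc1b and Ppara in AET_MET against SED and of Pprc1 in AET against SED (adjusted p 0.0579 to 0.0703). The power of 3 libraries a group for shifts of the size seen in the members is not reported here. Whether the wider spread of the members in AET bears on the calls was not tested.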
